A study of Mus musculus with 8 samples.

Results

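The comparison described here is mouse retina after saline injection at 4 weeks against 1 week, across all genes. It uses 4 of the 8 microarrays of a study of MPTP, 2 arrays of saline retina at 1 week and 2 at 4 weeks, chosen by their titles. In that study male C57BL/6 mice, listed as adult and 6 weeks old, were randomly placed in 4 groups of 6, injected with saline or MPTP and sampled after 7 or 28 days. MPTP is a neurotoxin, and its metabolite MPP+ blocks complex I in mitochondria. Each array carried RNA from a pool of 4 retinas, so 1 value is an average over those retinas, and the number of mice behind a pool is not known here. The other 4 arrays, MPTP retina at the same times, share no RNA with the saline arrays and served as a separate set of animals of the same ages, all of them treated with the toxin. The saline groups differ in the age of the mice, in the time since injection and in any step handled apart, and these cannot be told apart here. The labels do not say that the pools of a group came from different mice, so every p-value measures the spread between arrays only, which may be technical.

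The young adult mouse retina holds mostly rod photoreceptors with a small share of cones, followed by bipolar, horizontal, amacrine and ganglion cells and by Müller glia. In a cone, light activates an opsin, the opsin activates the cone transducin, a phosphodiesterase removes cyclic GMP, cyclic nucleotide-gated channels close, and cone arrestin ends the response. Photoreceptors renew their outer segments throughout life and hold many mitochondria in their inner segments. The saline comparison asks what differs between these adult retinas over 3 weeks without the toxin, which is also the background against which an effect of MPTP at each time is read.

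The measured tissue had the markers of retina. Gnat1, the rod transducin subunit, had log2 signals of 12.55 and 12.61 at 1 week and 12.46 and 12.52 at 4 weeks. Glul, the glutamine synthetase of Müller glia, had 11.27 and 11.50 at 1 week and 11.37 and 11.41 at 4 weeks. Saline 1 week array 2 and MPTP 1 week array 1 stood apart, with scores of 15.7 and 19.1 on the first principal component (38.3% of the variance), where the other 6 arrays lay between -9.39 and -0.39. The same 2 arrays had the widest spread of signals, with interquartile ranges of 1.90 and 1.92 against 1.66 to 1.74 in the other 6. Results are therefore given with and without these arrays where they differ.

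No gene passed the test in the saline comparison. Of 19938 genes measured by a probe set with 1 gene name, 0 had an adjusted p under 0.05 (limma with Benjamini-Hochberg adjustment, lowest adjusted p = 0.99967), while 424 (2.13%) had an unadjusted p under 0.05. Of these, 174 (0.873% of all genes) were higher at 4 weeks and 250 (1.25%) were lower. The log2 differences ran from -0.72 to 0.57 with a median of 0.0012, and the median standard error was 0.11. In 5527 genes (27.7%) the 2 arrays of 1 week did not overlap with the 2 of 4 weeks, 12.7% being higher at 4 weeks and 15.1% lower. Only 2 genes (0.01%) differed by at least 1.5-fold with an unadjusted p under 0.05 and without overlap, and both were lower at 4 weeks. They were the olfactory receptor gene Olfr243, at 3.91 and 4.75 at 1 week and 3.75 and 3.49 at 4 weeks, and the zinc finger gene Zfp874b, named below. All differences that follow are therefore values without a passed test, and in bulk tissue fewer cells of a type and less RNA per cell cannot be told apart.

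The genes of cone phototransduction stood lower at 4 weeks. The letters before the start of transcription of 4 of them are shown because these genes separated the 2 times over all 8 arrays and stand for successive steps of the cone response. They are the 150 bases upstream of the RefSeq start, 5′ to 3′ on the gene's strand (GRCm38.p6), at chr6:29380514-29380663 (minus strand) for Opn1sw, chrX:74127316-74127465 for Opn1mw, chr3:108092916-108093065 for Gnat2 and chrX:100605347-100605496 for Arr3. Capitals mark matches on either strand to TATAAA (the TATA box), TAATCC (the core bound by the photoreceptor factor CRX) or TAATTA (a general homeodomain core), which do not overlap each other here.
Opn1sw: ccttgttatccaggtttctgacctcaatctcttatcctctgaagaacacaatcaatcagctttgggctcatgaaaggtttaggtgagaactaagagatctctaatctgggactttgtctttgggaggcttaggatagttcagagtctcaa
Opn1mw: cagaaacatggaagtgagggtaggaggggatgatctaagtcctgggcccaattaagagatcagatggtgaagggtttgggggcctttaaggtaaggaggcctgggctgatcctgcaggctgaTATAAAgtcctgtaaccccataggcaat
Gnat2: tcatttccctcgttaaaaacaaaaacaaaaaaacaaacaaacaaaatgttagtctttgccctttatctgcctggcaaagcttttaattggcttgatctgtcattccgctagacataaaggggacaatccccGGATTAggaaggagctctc
Arr3: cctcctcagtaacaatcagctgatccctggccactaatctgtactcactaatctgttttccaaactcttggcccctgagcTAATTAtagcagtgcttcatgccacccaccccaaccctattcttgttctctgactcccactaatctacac
The TATA match of Opn1mw began 28 bases before the start, the CRX-type match of Gnat2 began 19 bases before it and the TAATTA of Arr3 began 70 bases before it. Among the 8 of 12 cone genes that the promoter table holds, 3 (37.5%) had TATAAA within these 150 bases, against 7.57% of 32851 RefSeq promoters of the same length. TAATCC stood in 1 of the 8 cone genes and in 7 of 13 (53.8%) of the rod genes held, against 3.6% of all promoters. TAATTA stood in 1 of the 8 against 2.73%. A gene counted when any of its listed promoters matched, while the shares over all promoters count each promoter.

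Both cone opsins were lower at 4 weeks in each saline array. Opn1sw, the short-wavelength cone opsin (probe set 10543591), had log2 signals of 10.93 and 10.99 at 1 week and 10.69 and 10.76 at 4 weeks. Its difference was -0.23 ± 0.09 (SE, n = 2 arrays per group), or 15.0% lower, and the 2 times did not overlap. Opn1mw, the middle-wavelength cone opsin (probe set 10600317), had 10.50 and 10.54 at 1 week and 10.36 and 10.34 at 4 weeks, a difference of -0.17 ± 0.09 (SE, n = 2 per group). In the separate MPTP arrays Opn1sw had 11.02 and 10.88 at 1 week against 10.68 and 10.75 at 4 weeks, which is 14.9% lower. There Opn1mw had 10.65 and 10.60 against 10.30 and 10.45, which is 15.9% lower. All 4 arrays of 1 week, saline and MPTP, thus stood above all 4 arrays of 4 weeks for each opsin.

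Of the other 10 cone genes, 4 also separated the times over all 8 arrays. Gnat2, the cone transducin alpha subunit (probe set 10495259), had 10.81 and 10.75 at 1 week and 10.66 and 10.57 at 4 weeks, a difference of -0.16 ± 0.09 (SE, n = 2 per group). Cngb3, the modulatory subunit of the cone cyclic nucleotide-gated channel (probe set 10503464), had 8.93 and 8.92 at 1 week and 8.70 and 8.72 at 4 weeks, a difference of -0.22 ± 0.09 (SE, n = 2 per group). The 2 arrays of a time lay within a few hundredths of each other for Cngb3, and the MPTP arrays had 9.01 and 8.88 against 8.62 and 8.74. Arr3, the cone arrestin that quenches activated opsin (probe set 10600994), had 9.72 and 10.02 at 1 week and 9.58 and 9.72 at 4 weeks, a difference of -0.23 ± 0.12 (SE, n = 2 per group). The lower Arr3 array of 1 week and the higher of 4 weeks both round to 9.72, and without saline 1 week array 2 its difference was -0.08. Pde6h, the inhibitory gamma subunit of the cone phosphodiesterase, had 8.87 and 8.76 at 1 week and 8.66 and 8.72 at 4 weeks, a difference of -0.12 ± 0.09 (SE, n = 2 per group).

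Of the 12 cone genes measured, 9 (75%) were below 0, where 49.4% of all genes and 75.6% of the decile of highest signal were. The share below 0 was thus near that of other genes of high signal. Lower without overlap were 7 (58.3%), where 15.1% of all genes and 31.7% of the highest decile were. The median log2 difference of the 12 was -0.12 beside 0.0012 over all genes. Opn1sw and Cngb3 had unadjusted p-values of 0.027 and 0.037 by limma and no cone gene passed after adjustment. In the MPTP arrays 11 of 12 were below 0, where 46.7% of all genes and 89.5% of the highest decile were. Without overlap 7 (58.3%) were lower, and the median was -0.16. There 21.5% of all genes and 52.5% of the decile of highest signal were lower without overlap, so in MPTP retina the share of cone genes was near that of other genes of high signal. Over both treatments 6 of 12 (Opn1sw, Opn1mw, Gnat2, Pde6h, Cngb3 and Arr3) had all 4 arrays of 1 week above all 4 arrays of 4 weeks, where 3.84% of all genes and 11.2% of the highest decile did. The remaining members were not uniform: Gngt2, the cone transducin gamma subunit, was at -0.13 ± 0.10, Pde6c, the catalytic cone phosphodiesterase subunit, at -0.07 ± 0.10 and Gnb3, the transducin beta subunit that ON bipolar cells also use, at -0.11 ± 0.20 (SE, n = 2 per group). Gnb3 was 0.08 without saline 4 weeks array 2. Cnga3, the principal cone channel subunit, was at 0.03 ± 0.11 and Slc24a2, the cone cation exchanger, at 0.12 ± 0.11 (SE, n = 2 per group). Grk1, the opsin kinase of rods and cones, was at 0.02 ± 0.11 (SE, n = 2 per group). Without the 2 arrays that stand apart the cone median was -0.14 in saline and -0.16 in MPTP retina, with 10 and 11 of 12 below 0.

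**Figure D1:**
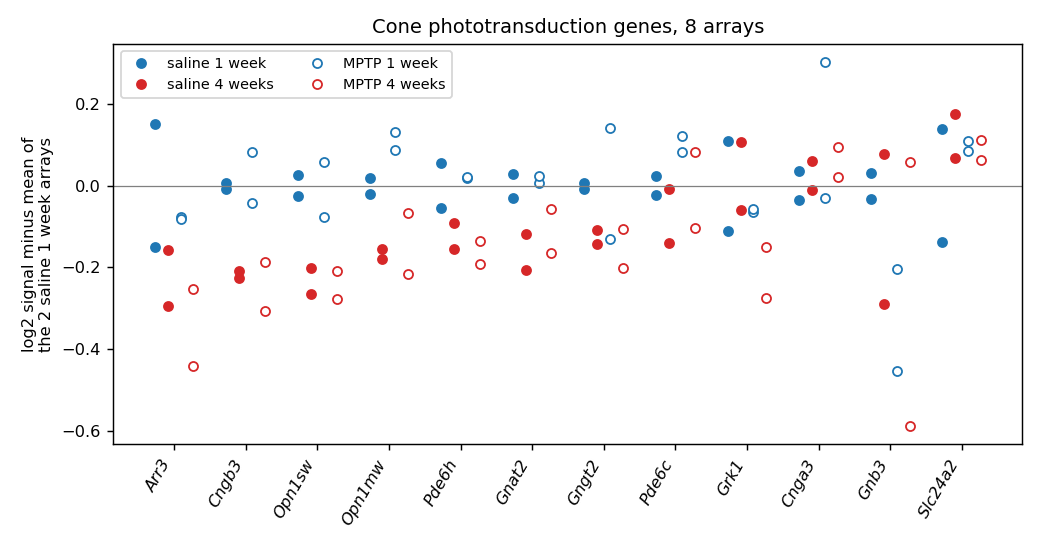
Log2 signal of the 12 cone phototransduction genes on each of the 8 arrays (vertical axis, minus the mean of the 2 saline 1 week arrays of that gene), with filled points for saline, open points for MPTP, blue for 1 week and red for 4 weeks. For Arr3, Cngb3, Opn1sw, Opn1mw, Pde6h and Gnat2 all 4 red points lie below all 4 blue points, while the other 6 genes overlap.

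Rod genes lay on both sides of 0 in saline retina. Of 18 rod phototransduction genes measured, 8 were above 0 and 10 below, the median was -0.012, and 4 (22.2%) were lower and 1 (5.56%) higher without overlap in saline, where 15.1% and 12.7% of all genes were, and 31.7% of the highest decile were lower. Sag, the rod arrestin, had 11.86 and 12.02 at 1 week and 11.96 and 11.93 at 4 weeks, and Pde6b, the rod phosphodiesterase beta subunit, had 11.66 and 11.80 against 11.63 and 11.69. Guca1a, the guanylate cyclase activator shared by rods and cones, was at -0.12 ± 0.08 and Slc24a1, the rod exchanger, at -0.13 ± 0.11 (SE, n = 2 per group). None of the 18 separated the times over all 8 arrays, although in the MPTP arrays all 18 were below 0 with a median of -0.099. There 10 of 18 rod genes (55.6%) were lower without overlap, close to the 58.3% of cone genes and the 52.5% of the highest decile. The rod median was 0.047 without saline 1 week array 2 and -0.09 without array 1, so its sign rests on which array of 1 week is used. The difference between the cone and the rod list was not tested. Of 18 outer segment structure genes 13 were below 0 with a median of -0.025, which was 0.054 with 6 of 18 below 0 without saline 1 week array 2. In saline 3 of these 18 (16.7%) were lower without overlap, against 15.1% of all genes and 31.7% of the highest decile. In the MPTP arrays 13 of the 18 were lower without overlap, against 21.5% of all genes and 52.5% of the highest decile. The lowest in saline retina was Prph2, the peripherin that shapes disc rims, at 11.48 and 11.59 against 11.33 and 11.35 (-0.20 ± 0.09, SE, n = 2 per group).

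Genes of high signal tended to be lower at 4 weeks, and in saline retina this tendency was absent without 1 array. When genes were placed in deciles by their mean signal, the median saline difference was between 0.012 and 0.042 in the 6 lower deciles and -0.0017, -0.031, -0.049 and -0.049 in the next 4, from lower to higher signal. In the highest decile 75.6% of 1994 genes were below 0, where 49.4% of all genes were, and 31.7% were lower without overlap. Without saline 1 week array 2, one of the arrays that stand apart, the highest decile had a median of -0.009 with 53.6% below 0, and the 2 deciles beneath it had medians of 0.0028 and 0.0024. In the MPTP arrays the highest decile was at -0.097 with 89.5% below 0, and at -0.081 without the array that stands apart.

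**Figure D2:**
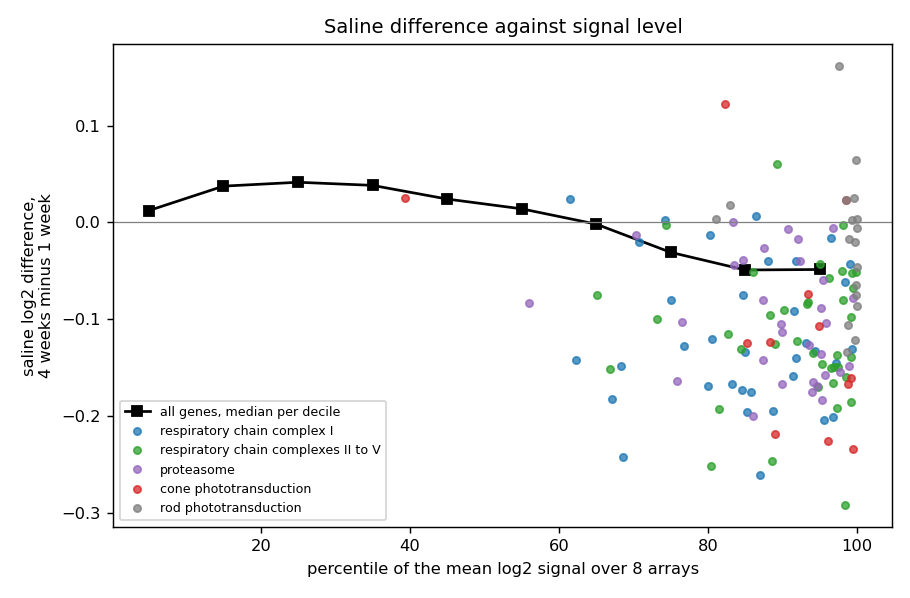
Saline log2 difference, 4 weeks minus 1 week (vertical axis), against the percentile of the mean log2 signal over 8 arrays (horizontal axis); black squares are medians of all genes per decile and coloured points are genes of 5 lists. The black line falls to -0.049 at high signal, most respiratory chain, proteasome and cone genes lie below it, and the rod genes at the right edge lie on both sides of it.

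Respiratory chain genes stood lower at 4 weeks with and without that array. Of 35 genes of complex I, which passes electrons from NADH to ubiquinone, 32 were below 0, 20 were lower without overlap (15.1% of all genes, 31.7% of the highest decile) and 0 were higher without overlap. The median was -0.13. In the MPTP arrays 34 of 35 were below 0 with a median of -0.12, beside the -0.097 of the highest decile there. Without saline 1 week array 2, where the highest decile was at -0.009, complex I was at -0.12 with 32 of 35 below 0, and without saline 1 week array 1 it was at -0.11. Leaving out saline 4 weeks array 2 moved it to -0.075. Ndufs8, an iron-sulphur subunit of the arm that holds the redox centres, had 7.74 and 7.79 at 1 week and 7.59 and 7.45 at 4 weeks, a difference of -0.24 ± 0.09 (SE, n = 2 per group). Ndufa11, a membrane arm subunit, had 8.87 and 8.57 against 8.54 and 8.38 (-0.26 ± 0.12, SE, n = 2 per group), but was at -0.11 without saline 1 week array 1. These were the 2 members with an unadjusted p under 0.05 by limma, where 1.25% of all genes were lower at that threshold. Over all 8 arrays 6 of 35 separated the times, against 3.84% of all genes and 11.2% of the highest decile.

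Complexes II to V, which carry electrons to oxygen and make ATP, stood lower in almost every member. Of 39 genes 38 were below 0 (49.4% of all genes, 75.6% of the highest decile), 25 (64.1%) were lower without overlap (15.1% and 31.7%), 0 had an unadjusted p under 0.05 and the median was -0.12. Cox7b, a small cytochrome c oxidase subunit, had 10.44 and 10.21 at 1 week and 10.11 and 9.96 at 4 weeks (-0.29 ± 0.14, SE, n = 2 per group). Uqcrq, a complex III subunit, had 8.26 and 8.22 against 7.87 and 8.11 (-0.25 ± 0.11), and Cox7a2 had 8.80 and 8.80 against 8.63 and 8.48 (-0.25 ± 0.12, SE, n = 2 per group). Leaving out saline 1 week array 1 moved Cox7b to -0.18, and leaving out saline 4 weeks array 1 moved Uqcrq to -0.13. Without saline 1 week array 2 the median was -0.15 with 35 of 39 below 0. In the MPTP arrays it was -0.10 with 34 of 39 below 0, beside -0.097 and 89.5% in the highest decile there. Of the 39 genes, 20 were lower without overlap in MPTP retina, where 21.5% of all genes and 52.5% of the highest decile were. Only 3 of 39 separated the times over all 8 arrays, against 3.84% of all genes and 11.2% of the highest decile. In saline retina the members lay between -0.29 and 0.060. Small subunits of this kind have processed pseudogenes that a probe set may also read.

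Respiratory chain genes are transcribed from the nucleus in part under NRF1 and ETS-family factors, and the promoter of Ndufa11 is shown as the complex I member with the lowest saline difference. It is the 150 bases before the RefSeq start, 5′ to 3′, at chr17:56717612-56717761 on the plus strand (GRCm38.p6), with capitals for TAATCC on either strand, beginning 94 bases before the start, and for the NRF1 site (GCGCA, any base, GCGC), beginning 60 bases before it.
Ndufa11: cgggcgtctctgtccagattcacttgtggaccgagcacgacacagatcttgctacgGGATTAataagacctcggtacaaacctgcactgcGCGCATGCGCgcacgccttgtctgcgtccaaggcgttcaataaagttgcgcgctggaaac
Here too a gene counted when any of its listed promoters matched. The NRF1 letters stood in 5 of 32 complex I genes (15.6%) and 7 of 31 of complexes II to V (22.6%). They stood in 5 of 25 of the proteasome (20.0%) and 0 of 8 of the cone genes, against 3.09% of 32851 promoters. The ETS letters CCGGAAG stood in 2 of 32, 8 of 31 (25.8%), 9 of 25 (36.0%) and 0 of 8, against 5.52%. Both were searched on both strands. The promoter shown has no match to the ETS letters, and its marked stretches do not overlap each other.

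The proteasome, which degrades ubiquitin-tagged proteins, was lower in 30 of its 31 measured subunit genes. The median was -0.10 and 18 (58.1%) were lower without overlap, against 15.1% of all genes and 31.7% of the highest decile, none with an unadjusted p under 0.05. Psmd12, a lid subunit, had 9.51 and 9.50 at 1 week and 9.37 and 9.31 at 4 weeks (-0.17 ± 0.08, SE, n = 2 per group), and Psma6, a core alpha subunit, had 9.60 and 9.66 against 9.53 and 9.37 (-0.18 ± 0.09). Both separated the times over all 8 arrays, as did 5 of the 31 in all, 3.84% of all genes and 11.2% of the highest decile. Psma6 was at -0.10 without saline 4 weeks array 2. In the MPTP arrays all 31 were below 0 with a median of -0.14, and without saline 1 week array 2 the saline median was -0.14 with 28 of 31 below 0. It was -0.061 both without saline 1 week array 1 and without saline 4 weeks array 2.

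Of 56 cytoplasmic ribosomal protein genes 48 were below 0, 23 (41.1%) were lower and 2 (3.57%) higher without overlap, and the median was -0.069. The shares without overlap were 15.1% lower and 12.7% higher over all genes, and 31.7% lower in the highest decile. Rps15a, of the small subunit, had 8.66 and 8.65 at 1 week and 8.33 and 8.43 at 4 weeks (-0.28 ± 0.09, SE, n = 2 per group), and Rplp1, of the large subunit stalk, had 9.31 and 9.45 against 9.13 and 9.17 (-0.23 ± 0.09). These were the 2 members with an unadjusted p under 0.05 by limma, where 1.25% of all genes were lower at that threshold. Ribosomal protein genes have many processed pseudogenes with near-identical sequence, which a probe set may also read. The median was -0.011 after quantile normalization, where the respiratory chain was at -0.084 for complex I and -0.069 for complexes II to V. In the MPTP arrays 53 of 56 were below 0 with a median of -0.14, and 11 of 56 separated the times over all 8 arrays, beside 3.84% of all genes and 11.2% of the highest decile.

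Small nucleolar and Y RNAs, which guide the modification of ribosomal RNA or bind the Ro protein, had a median of -0.11 with 26 of 34 below 0 although their signal lay below the median (median percentile 40.3). Snord104 had 6.23 and 6.47 at 1 week and 5.89 and 6.10 at 4 weeks (-0.35 ± 0.14, SE, n = 2 per group) and Snord87 had 6.44 and 6.53 against 6.14 and 6.34 (-0.24 ± 0.11). Snord49a was at -0.25 ± 0.10 in saline and at 0.16 in MPTP, so it did not share its direction, while Snord87 was at -0.44 there. Without saline 4 weeks array 1 Snord87 was at -0.14. These RNAs are short and many lie within introns of other genes.

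**Figure D3:**
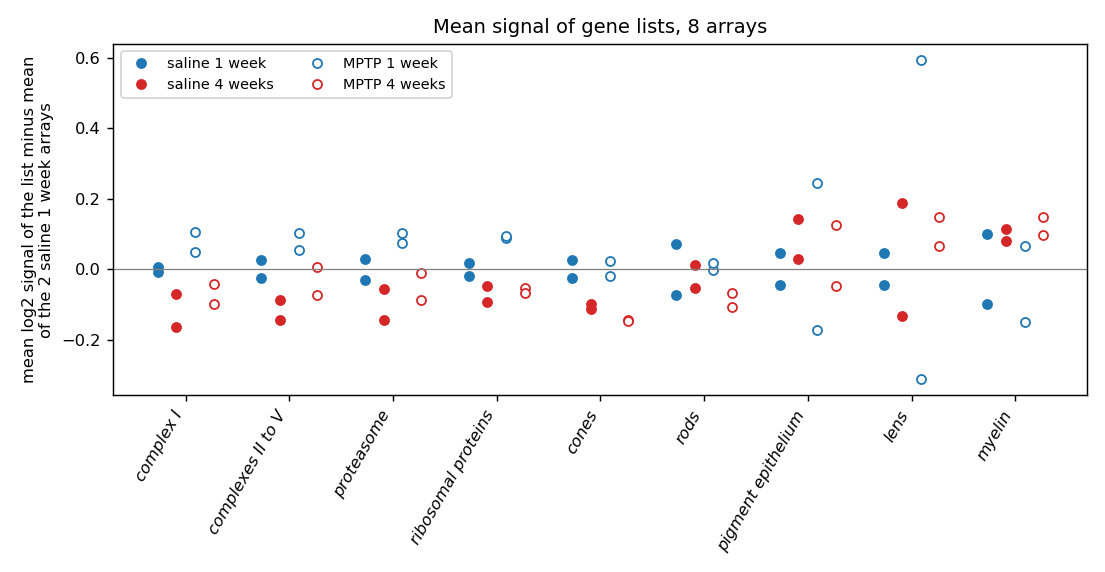
Mean log2 signal of 9 gene lists on each of the 8 arrays (vertical axis, minus the mean of the 2 saline 1 week arrays), with filled points for saline, open for MPTP, blue for 1 week and red for 4 weeks. For complex I, ribosomal proteins and cones every red point lies below every blue point, for the proteasome 1 open red point reaches past the lowest blue point, and pigment epithelium and lens spread most at 1 week in MPTP retina.

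Sugar metabolism genes included 3 members with an unadjusted p under 0.05, all lower, among 21 measured, where 1.25% of all genes were lower at that threshold. The median was -0.069, and -0.02 with 11 of 21 below 0 without saline 1 week array 2. Eno2, the neuronal enolase, had 8.75 and 9.07 at 1 week and 8.63 and 8.67 at 4 weeks (-0.26 ± 0.11, SE, n = 2 per group) but was at -0.11 without saline 1 week array 2. Aldoc, aldolase C, had 10.08 and 10.14 against 9.93 and 9.88 (-0.20 ± 0.09). Slc2a1, the glucose transporter of vessels, pigment epithelium and photoreceptors, had 9.23 and 9.33 against 9.12 and 9.03 (-0.20 ± 0.09, SE, n = 2 per group) and 9.32 and 9.31 against 9.13 and 9.05 in MPTP retina. Aldoc and Slc2a1 separated the times over all 8 arrays. In cholesterol and lipid synthesis, 13 of 23 genes were below 0 and only Cyp51, the lanosterol demethylase, had an unadjusted p under 0.05, at 8.14 and 8.28 against 7.96 and 7.97 (-0.25 ± 0.09, SE, n = 2 per group).

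Among inner retinal neurons, single genes stood out more than whole lists. Of 20 bipolar cell genes 15 (75%) were below 0 with a median of -0.082, which was -0.021 without saline 1 week array 2. Their signal was high (median percentile 88.0), and in the decile of that signal 73.2% of genes were below 0 with a median of -0.049. Isl1, a transcription factor of ON bipolar, ganglion and cholinergic amacrine cells, had 9.65 and 9.68 at 1 week and 9.44 and 9.44 at 4 weeks (-0.22 ± 0.09, SE, n = 2 per group). Gng13, the gamma subunit of the ON bipolar G protein, had 8.65 and 8.58 against 8.48 and 8.32 (-0.22 ± 0.09), and 8.78 and 8.88 against 8.58 and 8.54 in MPTP retina. Horizontal cell genes had a median of -0.0081 over 10 genes and retinal transcription factors -0.036 over 27. The former changed sign in 5 of 19 alternatives, and the latter was 0.03 with 10 of 27 below 0 without saline 1 week array 2.

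Amacrine genes were split, with 13 of 23 below 0 and a median of -0.021. Penk, the enkephalin precursor of a subset of amacrine cells, had 7.71 and 8.74 at 1 week and 7.43 and 7.71 at 4 weeks, a difference of -0.65 ± 0.31 (SE, n = 2 per group) that was -0.14 without saline 1 week array 2. In MPTP retina Penk was at -0.88, and there the higher array of 1 week was not the one that stands apart. Tac1, the substance P precursor, had 8.15 and 8.42 against 8.04 and 8.12 (-0.20 ± 0.11, SE, n = 2 per group) and separated the times over all 8 arrays, but was at -0.067 without saline 1 week array 2.

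In the dopamine system, the target of MPTP in the brain, 9 of 16 genes were below 0 in saline retina and the median was -0.031. Maoa, monoamine oxidase A, which degrades dopamine, had 7.42 and 7.41 at 1 week and 7.14 and 7.02 at 4 weeks, a difference of -0.33 ± 0.09 (SE, n = 2 per group) or 20.6% lower. Its unadjusted p was 0.0035 by limma with 7.16 and 7.23 against 7.12 and 7.09 in MPTP retina, where the times also did not overlap but lay closer. Th, tyrosine hydroxylase, the rate-limiting enzyme of dopamine synthesis, had 6.95 and 6.87 against 6.95 and 7.10 (0.11 ± 0.09, SE, n = 2 per group), and 6.76 and 6.74 against 6.98 and 7.04 in MPTP retina. Of 18 ganglion cell genes 9 were above and 9 below 0. Slc17a6, the vesicular glutamate transporter of ganglion cells, had 8.97 and 9.06 against 8.78 and 8.74 in saline (-0.26 ± 0.12, SE, n = 2 per group) and was at -0.0043 in MPTP retina.

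Glial and vascular lists had small medians whose sign often rested on 1 array, except for myelin. Müller glia genes had a median of -0.017 over 21 and gliosis genes 0.072 over 19, which turned to -0.13 without saline 4 weeks array 1. Gfap, the marker of reactive glia, had 6.76 and 6.77 at 1 week and 6.78 and 6.45 at 4 weeks. All 12 oligodendrocyte myelin genes were above 0 (50.6% of all genes were), 5 were higher without overlap (12.7% of all genes) and the median was 0.085. Their signal was low (median percentile 36.4), and in the decile of that signal 35.9% of genes were below 0 with a median of 0.038. Olig1, an oligodendrocyte lineage factor, had 5.68 and 5.44 against 5.71 and 5.90 (0.24 ± 0.11, SE, n = 2 per group), and Mog, a myelin surface protein, had 6.78 and 6.68 against 6.87 and 6.87. Without saline 1 week array 2 Olig1 was at 0.12 and the myelin median was 0.027 with 5 of 12 below 0. The mouse retina itself holds no myelin, which begins in the optic nerve, and Mbp, the myelin basic protein, was at 6.92 and 6.91 against 6.86 and 7.01. The part of adhering optic nerve in these values was not tested. Microglia genes had a median of -0.015 over 17, which was -0.088 without saline 1 week array 2 and 0.075 without array 1, and endothelial and pericyte genes -0.053 over 18, the latter at -0.12 without saline 1 week array 2 and 0.026 without array 1.

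Type I interferon response genes were mostly below 0, less so without 1 array. Of 25 type I interferon response genes 18 were below 0 (49.4% of all genes were) with a median of -0.089, which was 0.0022 without saline 4 weeks array 2. Without overlap 1 (4%) was lower and 1 (4%) higher in saline, where 15.1% and 12.7% of all genes were. Oas2, an antiviral oligoadenylate synthetase, was the only member with an unadjusted p under 0.05 and was higher, at 6.48 and 6.53 against 6.72 and 6.79 (0.25 ± 0.09, SE, n = 2 per group). Ifit3, another interferon-induced gene, had 7.57 and 8.01 against 7.84 and 7.10, so its arrays of 4 weeks lay far apart. In MPTP retina 17 of 25 were below 0 with a median of -0.22, 14 were lower without overlap (21.5% of all genes) and 10 were lower at an unadjusted p under 0.05 (4.36% of all genes). The median over both treatments, -0.17, was the lowest of the 46 lists, and the MPTP arrays lay further below 0 (-0.22) than the saline arrays (-0.089). Among 15 MHC class I and antigen processing genes only B2m, described below, had an unadjusted p under 0.05 in saline.

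Immediate early genes, which respond within minutes to activity or stress, were above 0 in 16 of 23 with 7 higher without overlap (12.7% of all genes) and a median of 0.038. Nr4a3, an orphan nuclear receptor of this class, had 5.55 and 5.58 at 1 week and 5.97 and 5.86 at 4 weeks (0.35 ± 0.09, SE, n = 2 per group) and 5.50 and 5.48 against 5.66 and 5.65 in MPTP retina. Egr1 had 7.47 and 7.12 against 7.86 and 7.49 in saline, but 8.02 and 7.39 against 7.61 and 7.02 in MPTP retina. Fos had 6.79 and 6.44 against 6.89 and 6.72 in saline and was at -0.27 in MPTP retina. Without saline 1 week array 2 the median of the list was -0.00058. Clock genes had a median of 0.010 over 22.

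**Figure D4:**
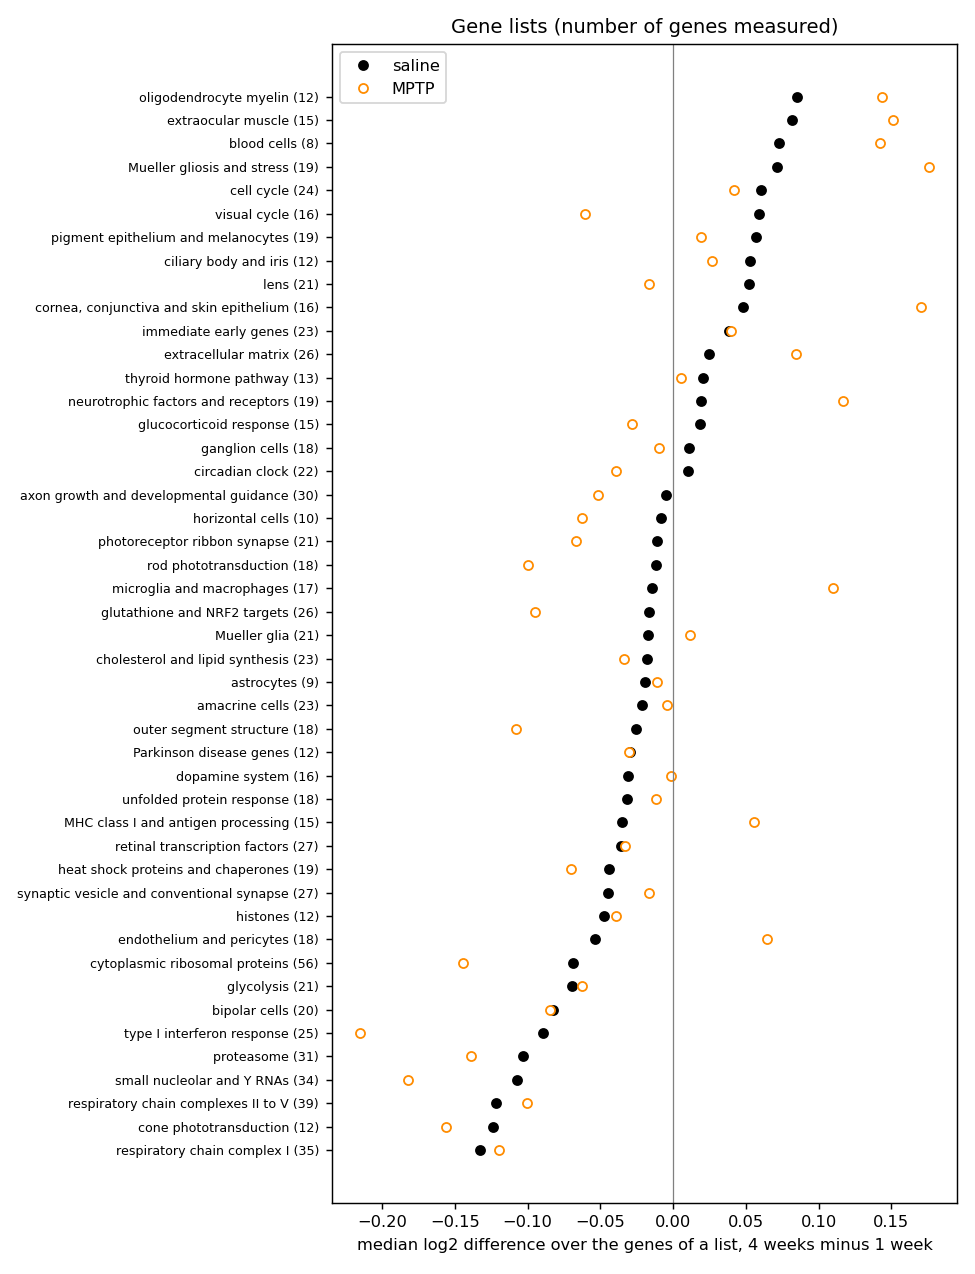
Median log2 difference, 4 weeks minus 1 week (horizontal axis), of 46 gene lists with the number of genes measured in brackets, black for saline and orange rings for MPTP. Complex I (-0.13), cone phototransduction (-0.12) and complexes II to V (-0.12) are lowest in saline, and oligodendrocyte myelin (0.085) is highest.

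The genes with the largest differences among those above the median signal were few on the higher side. There were 9969 genes above the median signal. With predicted, clone, olfactory, vomeronasal and microRNA genes passed over, 17 were higher and 148 lower at an unadjusted p under 0.05 without overlap. At any signal the same rule gave 124 higher and 206 lower, where 19938 genes were measured. Both totals include the genes passed over. The lower tendency of genes of high signal, described above, was absent in saline retina without saline 1 week array 2. The 12 most extreme of each side are named. Highest was Kcnj13, an inward-rectifying potassium channel of the pigment epithelium (probe set 10356403), with 9.12 and 8.91 at 1 week and 9.72 and 9.33 at 4 weeks. Its difference was 0.51 ± 0.16 (SE, n = 2 per group), or 42.3% higher, and was 0.31 without saline 4 weeks array 1. In MPTP retina it had 9.02 and 9.34 against 9.59 and 9.29, which overlap.

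Some pigment epithelium genes had the array order of Kcnj13 in saline retina and others did not. Rpe65, the retinoid isomerase of that tissue, had 8.14 and 7.49 at 1 week and 8.71 and 8.07 at 4 weeks (0.57 ± 0.40, SE, n = 2 per group), the highest difference of all 19938 genes, which was 0.25 both without saline 1 week array 2 and without saline 4 weeks array 1. Ttr, transthyretin, had 10.56 and 9.87 against 10.90 and 10.42, Rgr, a retinal G protein-coupled receptor, had 8.90 and 8.27 against 9.29 and 8.83, and Lrat, lecithin retinol acyltransferase, had 7.02 and 6.79 against 7.43 and 7.25. In each of these 4 genes array 1 exceeded array 2 at both times in saline retina. In MPTP retina Rpe65 had 7.73 and 9.11 against 8.34 and 7.85, a difference of -0.33, opposite in sign to that in saline. There Ttr was at 0.15, Rgr at 0.0039 and Lrat at 0.026. Over the whole list of 19 pigment epithelium and melanocyte genes 13 were above 0, 2 were higher and 2 lower without overlap (10.5% each, beside 12.7% and 15.1% of all genes), and the mean log2 signal was 7.61 and 7.52 at 1 week and 7.70 and 7.59 at 4 weeks. Best1, another gene of that epithelium, had 6.58 and 6.31 against 6.20 and 6.31. Of the pigment synthesis genes Dct had 6.56 and 7.11 against 6.54 and 6.48, Tyr was at -0.26 ± 0.15 and Tyrp1 at -0.07 ± 0.17 (SE, n = 2 per group). The part of adhering pigment epithelium in the value of Kcnj13 was not tested. The lens list had means from 6.82 to 7.14 over the 4 saline arrays, both ends being arrays of 4 weeks, with Crygs, a gamma crystallin, at 7.60 and 7.96 against 7.38 and 8.42.

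The other 11 higher genes lay between 0.23 and 0.36. Ccl11, the eotaxin chemokine, had 6.97 and 6.73 against 7.13 and 7.30 (0.36 ± 0.13, SE, n = 2 per group), and Srpx, a sushi-repeat protein, had 6.89 and 6.93 against 7.20 and 7.28 (0.33 ± 0.09). Nfix, a nuclear factor I transcription factor of late retinal progenitors and glia, had 9.30 and 9.45 against 9.70 and 9.56 (0.25 ± 0.10, SE, n = 2 per group) and separated the times over all 8 arrays. So did Adad2 (0.28), Sdr42e1 (0.25) and Fam117a (0.23). Ahnak2 (0.27), Sox3 (0.26), Sh3rf3 (0.26), Zar1 (0.25) and Tmem104 (0.23) did not. In MPTP retina 9 of the 12 were higher at 4 weeks, where 53.3% of all genes were.

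By the same rule the lowest gene above the median signal was B2m, the light chain of MHC class I molecules (probe set 10475414). It had 10.46 and 10.25 at 1 week and 10.16 and 9.53 at 4 weeks. Its difference of -0.51 ± 0.21 (SE, n = 2 per group) was -0.19 without saline 4 weeks array 2 and -0.83 without array 1. In MPTP retina B2m had 10.06 and 10.18 against 10.18 and 9.66. Each group of 4 weeks thus held 1 array of low B2m. Srpr, the docking receptor of the signal recognition particle, had 7.57 and 7.97 against 7.17 and 7.44 (-0.46 ± 0.15, SE, n = 2 per group) and 7.71 and 7.55 against 7.44 and 7.24 in MPTP retina, so all arrays of 1 week lay above all of 4 weeks. Its difference was -0.26 without saline 1 week array 2.

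Further lower genes with the same value in both treatments were Slitrk6 and Zfp830. Slitrk6, a neuronal membrane protein of the retina and inner ear, had 8.36 and 8.23 against 7.97 and 7.86 (-0.38 ± 0.13, SE, n = 2 per group), 23.2% lower in saline and 23.2% lower in MPTP retina. Zfp830, a zinc finger protein, had 7.91 and 8.05 against 7.64 and 7.60 (-0.36 ± 0.09, SE, n = 2 per group), 21.8% lower in each treatment. Rnd3, a small GTP-binding protein, had 8.00 and 7.87 against 7.66 and 7.52 (-0.35 ± 0.10) and also separated the times over all 8 arrays. Timm21 (-0.44), of the mitochondrial import machinery, and Mrps18c (-0.35), of the mitochondrial ribosome, were lower in saline 4 weeks array 2 than in array 1. Their values were -0.28 and -0.18 without saline 4 weeks array 2. Trafficking genes Vps45 (-0.39), Rab5b (-0.37) and Rab11b (-0.36) overlapped or lay close in MPTP retina, at -0.063, -0.023 and -0.059, and Rab11b was at -0.083 when all of its probe sets were averaged. Zfp729b (-0.36) and Crhbp (-0.35), the latter at -0.18 without saline 1 week array 2, complete the 12. All 12 were below 0 in MPTP retina, where 46.7% of all genes and 89.5% of the highest decile were. The 12 came from genes above the median signal, whose decile medians in MPTP retina lay between -0.10 and 0.027. Without the 2 arrays that stand apart, 2 of the 12 were above 0 in MPTP retina.

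**Figure D5:**
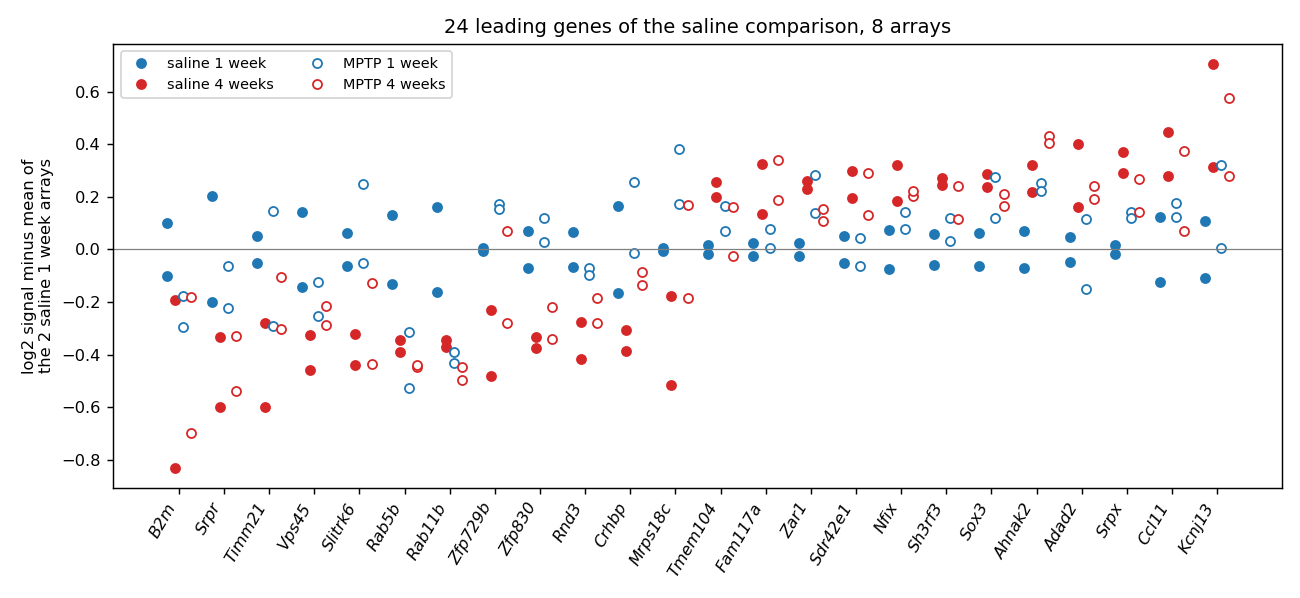
Log2 signal of the 12 lowest and 12 highest genes above the median signal on each of the 8 arrays (vertical axis, minus the mean of the 2 saline 1 week arrays), with filled points for saline, open for MPTP, blue for 1 week and red for 4 weeks. The filled red and blue points do not overlap in any of the 24 by the rule that chose them, and the open points separate in the same direction for Slitrk6, Zfp830 and Srpr but overlap for Kcnj13 and B2m.

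At any signal the rule added genes with low values, where noise weighs most. Cyp4a12a, a fatty acid hydroxylase gene of liver and kidney, had 4.61 and 4.67 at 1 week and 5.04 and 5.07 at 4 weeks (0.41 ± 0.10, SE, n = 2 per group), with 4.54 and 4.71 against 5.02 and 5.15 in MPTP retina. Over both treatments it had the lowest unadjusted p of all genes by limma, 3.17e-05, and an adjusted p of 0.403 at a difference of 0.43 with higher values in 4 of 4 arrays of 4 weeks. It belongs to a family of near-identical copies, so its identity is uncertain. Atoh1 (0.41), a neuronal differentiation factor of the cerebellum and inner ear, was at 0.38 in MPTP retina but at 0.18 in saline without saline 4 weeks array 2, while Gal3st2c (0.43) was at 0.19, Prl2c1 (0.41) at 0.049 and Tex37 (0.39) at -0.13. On the lower side Zfp874b had 6.36 and 6.79 against 6.17 and 5.79 (-0.60 ± 0.15, SE, n = 2 per group), and Zfp979 (-0.51), Gbp4 (-0.50) and Cd209f (-0.50) followed. Gbp4 and Cd209f were at 0.075 and 0.15 in MPTP retina. Gbp4 was at -0.27 and Zfp874b at -0.39 without saline 1 week array 2.

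Genes that differed in saline retina tended to differ the same way in the MPTP arrays, less so without the 2 arrays that stand apart. Of the 174 genes higher at an unadjusted p under 0.05 in saline, 83.3% were higher in MPTP retina (53.3% of all genes), and of the 250 lower genes 77.6% were lower (46.7% of all genes). Across 19938 genes, which are not independent replicates, the 2 sets of differences had a Pearson correlation of 0.40. Without saline 1 week array 2 and MPTP 1 week array 1 the correlation was 0.037, and of 404 higher and 719 lower genes 62.6% and 49.9% kept the direction against 49.6% and 50.4% of all genes. With each gene averaged over the treatments and without these arrays, the medians of cone phototransduction, complex I and the proteasome were -0.14, -0.16 and -0.12. Taken by treatment, they were -0.14, -0.12 and -0.14 in saline and -0.16, -0.15 and -0.13 in MPTP retina. In MPTP retina alone 1952 genes (9.79%) had an unadjusted p under 0.05 and 0 passed after adjustment by limma (lowest adjusted p = 0.507). A test of whether the change with time differed between treatments gave 0 genes after adjustment by limma (lowest adjusted p = 0.147) and 391 (1.96%) at an unadjusted p under 0.05.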

How the data were processed

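RNA from pools of 4 mouse retinas was measured on 8 single-colour Affymetrix gene arrays, 2 per group. The authors deposited log2 values made by RMA in Affymetrix Expression Console, per the submitters' processing notes; RMA subtracts background, makes the arrays' distributions alike and summarises probes, which compresses small differences. Of 28944 probe sets, 21789 had 1 gene name, 1621 several and 5534 none in the platform annotation; the probe set of highest mean signal stood for a gene, leaving 19938 genes. No filter on signal was used. limma 3.58.1 in R 4.3.3 fitted group means over all 8 arrays, with p-values adjusted by Benjamini-Hochberg over all genes; both treatments were also fitted together as time plus treatment. The fit was tested on simulated data. The number of arrays limits the precision.

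Named genes were the 12 highest and 12 lowest differences without overlap among genes above the median signal, the 6 highest and 6 lowest at any signal (each at an unadjusted p under 0.05, with predicted, clone, olfactory, vomeronasal and microRNA genes passed over), up to 4 members per list by p, and markers; other names were chosen after their values were seen. The gene lists and comparisons were chosen with earlier results of these data known. Some marker genes are not reported here. Alternatives were other normalizations, signal filters, probe-set rules, each array left out, a replicate block and the arrays standing apart left out. The labels do not say that array numbers pair the samples.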

Additional observations from a re-analysis of the deposited data

How the results depend on the processing

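No gene had an adjusted p under 0.05 by limma in the saline comparison under any of 19 alternatives (lowest adjusted p = 0.348), with 198 to 1688 genes at an unadjusted p under 0.05 against 424. The difference between treatments gave 0 in its 18 alternatives, with 127 to 1445 against 391. MPTP gave 0 to 1 as arrays were left out and 1110 to 3141 at an unadjusted p under 0.05 over its alternatives against 1952. Its 1 gene, Rny1 (-1.69 ± 0.12), passed without the 2 arrays that stand apart (adjusted p = 0.0374) and without MPTP 1 week array 1 (0.0117). Both treatments together gave 1 unnamed probe set with all probe sets tested (adjusted p = 0.0219) and 0 otherwise. The saline count past 1.5-fold, 2, was 4 with arrays centred on their medians, 1 among genes above the median signal, 17 with all probe sets, 22 without the 2 arrays apart, and 2 to 44 leaving out 1 array (44 and 20 without saline 1 week arrays 1 and 2, 14 and 9 without saline 4 weeks arrays 1 and 2). With a replicate block 0 genes passed in each comparison (lowest adjusted p = 0.476) and 3 were past 1.5-fold; with numbers crossed, chosen after seeing the data, 0 and 2. Same-numbered saline arrays deviated from their group means with a correlation of -0.16, and nothing in the labels pairs them.

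The medians of cones, complex I, complexes II to V, proteasome and ribosomal proteins kept their sign in all 19 alternatives; that of rods changed it in 5. The cone median was -0.067 by quantile and -0.075 by cyclic loess normalization. Cnga3 (0.03) was -0.00817 by quantile normalization, -0.00883 by cyclic loess, -0.00968 without the 2 arrays apart and -0.0103 to 0.0615 leaving out 1 array. Tulp1 was 0.0626 without the 2 arrays apart. Leaving out 1 array gave Tulp1 -0.202 to 0.0626, Slc24a2 -0.0165 to 0.261, Grk1 -0.0864 to 0.133, Gnb3 -0.29 to 0.0765, Ifit3 -0.69 to 0.0498 and Scd2 -0.0345 to 0.328. The cause was not tested. With 2 arrays per group, differences under about 2 standard errors, 0.11 each at the median, were not resolved. Larger ones in the saline comparison did not pass after adjustment either.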
